A study of Chlamydomonas reinhardtii with 4 samples.

Results

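AMT1 and AMT4 are ammonium transporters of the unicellular green alga Chlamydomonas reinhardtii. They were followed through the probes of gene model 158745 (AMT1, RefSeq locus CHLRE_03g159254v5) and of gene model 156131 (AMT4, RefSeq locus CHLRE_13g569850v5), which were 2 of the 14557 models on the array. Each model had 3 probes of different sequence, referred to by their number as slots 1, 2 and 3, and all 6 probes passed the filter on dim signals. The models were designed on JGI 3.1 annotation, and their symbols are those of the study. Other annotation columns of the study name the same 2 models AMT1A and AMT1D. No other model was named as an AMT gene in the sources used here, so the rest of the AMT family was not analysed here.

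AMT proteins carry ammonium across membranes, and in algae they serve the uptake of ammonium from the medium. Ammonium that enters the cell is joined to glutamate by glutamine synthetase, and glutamate synthase then returns the nitrogen to glutamate. Ammonium is the preferred nitrogen source of C. reinhardtii, and genes for the use of other sources such as nitrate are kept low while it is present. Many ammonium transporter genes of plants and algae are known to respond to nitrogen supply.

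The samples were cultures of the wild-type strain cc3491. Starvation began when washed cells from an early stationary culture in TAP, an acetate medium whose nitrogen source is ammonium, were transferred to the same medium lacking nitrogen. It lasted 96 h in continuous light. The reference RNA came from the same strain at 0 h, before nitrogen was removed, and from cultures that were likewise in early stationary phase. Whether the reference cells had been washed is not given in the sources used here. Each of the 4 arrays carried the 0 h RNA in the green dye Cy3 and RNA of starved cells, taken at 24, 48, 72 or 96 h, in the red dye Cy5. RNA of biological replicates had been pooled before labelling, according to the series description. A time point was therefore represented by a single array, and the spread given below is that between the 4 time points. The dyes were not swapped, so that a fixed dye effect of a probe and a change against 0 h cannot be told apart. The 0 h RNA was counted as 1 control sample, whose own biological spread is not covered by any test. In Cy3, 17203 to 19070 probes of an array exceeded the background clearly and 439 to 483 spots were saturated, and in Cy5 these numbers were 24351 to 26902 and 359 to 434.

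Transcripts of both genes were far more abundant in starved cells than at 0 h, on every array and with every probe. Averaged over the 4 time points, the log2 ratio of starved over 0 h was 4.83 ± 0.21 (SD, n = 4 time points) for AMT1 and 5.36 ± 0.28 for AMT4, corresponding to 28.5-fold and 41.0-fold. The AMT1 value includes 2 saturated spots, described below. The increase was present at 24 h, the first sample after nitrogen was removed, and no further change up to 96 h was called. Ratios are relative to the other transcripts of the same array, and a change in the share of cells that express a gene and one in its RNA per cell cannot be told apart.

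AMT1 transcripts were detected at 0 h by all 3 probes. For slot 1 the median Cy3 intensity was 1274, 2128, 1552.5 and 2666 on the 24, 48, 72 and 96 h arrays, against a local background of 36 to 49. For slot 2 it was 576, 932, 697 and 1062, and for slot 3 it was 153, 253, 239 and 382. The median Cy3 intensity over all spots lay between 114.5 and 124.5, so that even the dimmest AMT1 probe was brighter at 0 h than the median spot of its array. In the starved channel slot 1 reached 53249, 65529, 46739 and 65529. The value of 65529 is the limit of the scanner, and the spots at 48 and 96 h were flagged as saturated. Slot 2 gave 27290.5, 50160, 30414 and 44920 and was not saturated. Slot 3 gave 1120, 1761, 1597 and 2722, which was also below saturation. For each AMT1 probe the lowest starved value was above the highest 0 h value.

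The AMT4 probes differed less from each other. At 0 h slot 1 gave 308, 360, 297 and 282 in the same array order, slot 2 gave 355, 461.5, 320 and 381, and slot 3 gave 537.5, 613.5, 438.5 and 479.5. In starved cells the intensity of slot 1 was 20722, 24350, 10985 and 11682. Slot 2 followed with 12992.5, 17813, 8548 and 8318, and slot 3 with 34053.5, 30357, 18913 and 19874.5. Here, too, the channels did not overlap, and no AMT4 spot was saturated. All 24 spots of the 2 genes were well above background in both channels, 0 were flagged as outliers, and the 2 saturated ones were those of AMT1 slot 1 in Cy5.

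**Figure D1:**
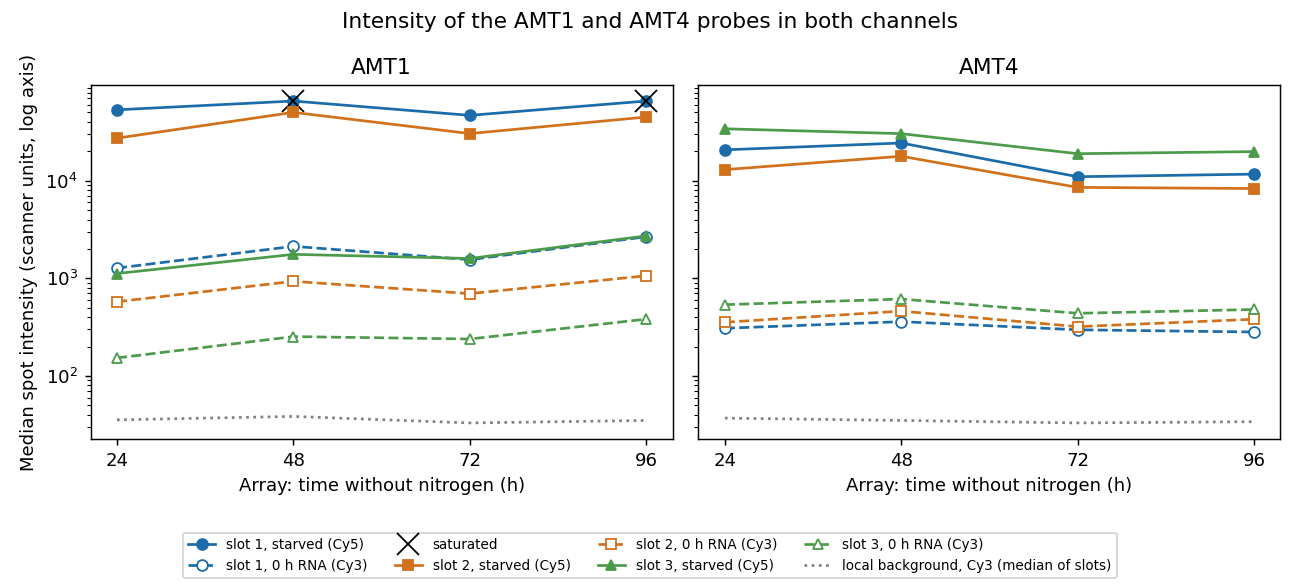
Median spot intensity of the 3 AMT1 probes (left) and the 3 AMT4 probes (right) on the 4 arrays, on a log axis, with filled symbols and solid lines for starved RNA (Cy5) and open symbols and dashed lines for 0 h RNA (Cy3). Black crosses mark the 2 saturated AMT1 spots at 65529, and the dotted line is the Cy3 background. The starved signal of every probe lies above its 0 h signal on all arrays.

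After background correction and loess normalization the AMT1 model stood at log2 ratios of 5.11, 4.86, 4.77 and 4.60 at 24, 48, 72 and 96 h. This model value is the median of the 3 probes, and on all 4 arrays the median was the slot 1 probe. Its saturated spots give only a lower bound for this probe. In slot 1 the increase was thus at least 29.0-fold at 48 h and at least 24.3-fold at 96 h. These bounds compare the channel values after normalization, and they are open to dye bias. The unsaturated spots of the same probe gave 34.4-fold at 24 h and 27.3-fold at 72 h. At 48 and 96 h slot 2 gave 49.6- and 40.8-fold, and slot 3 gave 6.11- and 6.42-fold. AMT4 stood at log2 ratios of 5.66, 5.48, 5.0 and 5.29, corresponding to 50.5-, 44.7-, 32.0- and 39.1-fold at 24, 48, 72 and 96 h. Both models were thus past 2-fold on all 4 arrays, as were 1.84% of all tested models. Only 7 of the 10772 tested models (0.065%) kept a log2 ratio of at least 4 at every time point, and AMT1 and AMT4 were 2 of them. For AMT1 this rested on the slot 1 probe. Its mean log2 ratio was 3.98 with that probe left out and 5.37 with slot 2 alone.

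Tested over the 4 arrays with limma and Benjamini-Hochberg adjustment over 10772 models, the mean log2 ratio of AMT1 was 4.83 (95% confidence interval 4.59 to 5.08, adjusted p = 2.7e-05). That of AMT4 was 5.36 (5.06 to 5.66, adjusted p = 3.3e-05). A model was called when its adjusted p was under 0.05 and its mean change at least 2-fold, and both genes were called, against a background of 3.47% of models called higher. In the order of mean log2 ratios AMT4 was number 2 of the 10772 models with this normalization. The rank depended on the processing. With the deposited log ratios AMT4 had 5.81, below models 192090 and 136895 at 6.06 and 5.93. No rank is given for AMT1, whose value rests on a probe saturated on 2 arrays. With the Holm adjustment named in the study's methods the adjusted p of limma was 0.00033 for AMT1 and 0.00060 for AMT4. The intervals reflect the differences between time points and not those between cultures.

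All 6 probes were called on their own, where 4.26% of 22132 probes were called higher, but the AMT1 probes did not give the same fold. Slot 1 had a mean log2 ratio of 4.83 ± 0.21 (SD, n = 4 time points) and slot 2 of 5.37 ± 0.18. Slot 3 had 2.60 ± 0.10, that is 6.05-fold, and it was the lowest of the 3 on all 4 arrays. Its log2 ratio was 2.64, 2.61, 2.45 and 2.68 at the 4 time points, while slot 2 gave 5.22, 5.63, 5.26 and 5.35. For AMT4 the means were 5.49 ± 0.43 in slot 1, 4.70 ± 0.35 in slot 2 and 5.42 ± 0.20 in slot 3. The range across the 3 probes was therefore 2.77 on the log2 scale in AMT1 and 0.79 in AMT4. Among the 230 models called higher with 3 kept probes the median range was 0.93, and 5.65% had a range as wide as that of AMT1 or wider. Slot 3 lay below the mean of slots 1 and 2 in 66.1% of those models. In AMT4 it lay 0.32 above them, and in AMT1 its difference from them was -2.50.

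The low ratio of AMT1 slot 3 accompanied a low signal in both channels, since its starved intensity of 1120 to 2722 was far under that of slots 1 and 2. The study describes a probe per transcript that was carried over from an earlier array, with lower ratios and frequent potential for cross-hybridization. The probe names do not tell whether slot 3, or any other of these 6 probes, is such a probe, and its part in the result was not tested. The study states that its supplement gives the origin and the specificity of the probes, and neither was assessed here. The AMT1 fold thus depended on the probe. With the saturated slot 1 probe left out, the mean log2 ratio of AMT1 was 3.98, and with slot 2 alone it was 5.37.

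**Figure D2:**
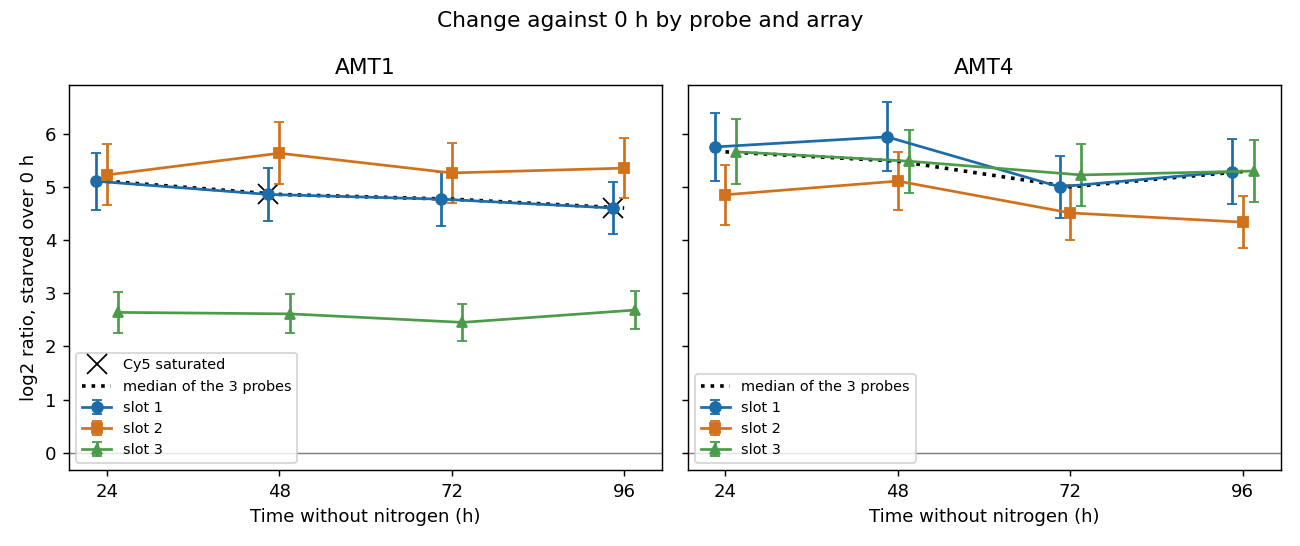
Log2 ratio of starved over 0 h RNA for the 3 probes of AMT1 (left) and AMT4 (right) at 24, 48, 72 and 96 h. Error bars are the error of the deposited log ratio given by the scanner software for each spot, the dotted line is the median of the 3 probes, and crosses mark saturated Cy5 spots. AMT1 slot 3 lies near 2.60 while all other probes lie above 4.

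It was next asked whether transcript levels went on changing after the first day. The mean of 48, 72 and 96 h was lower than the 24 h value by a log2 difference of -0.36 in AMT1 (95% confidence interval -0.80 to 0.08, limma adjusted p = 0.61). For AMT4 this difference was -0.40 (-1.02 to 0.22, adjusted p = 0.68). Neither was called, the rule here being an adjusted p under 0.05 with no limit on the fold. In this test 0 of 10772 models (0%) were called by limma, and 992 had an unadjusted p under 0.05. The intervals reach down to 0.57-fold of the 24 h value in AMT1 and 0.49-fold in AMT4.

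The linear trend from 24 to 96 h gave a similar picture. The slope of the log2 ratio per 24 h was -0.16 in AMT1 (-0.29 to -0.03, unadjusted p = 0.027 and adjusted p = 0.33 by limma) and -0.16 in AMT4 (-0.39 to 0.07, adjusted p = 0.53). Neither was called, while 0.139% of all models were called with a negative slope and 0.00928% with a positive one. The AMT1 slope came from the slot 1 probe, which was saturated at 48 and 96 h. The other AMT1 probes had slopes of 0.0013 in slot 2 and -0.0029 in slot 3. With the saturated probe left out, the difference after the first day was 0.07 in AMT1. The AMT4 probes had slopes of -0.23, -0.21 and -0.13 in slots 1, 2 and 3, all of them negative and none called, where 0.181% of all probes were called with a negative slope and 0.00452% with a positive one.

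The single steps were small beside the increase itself. AMT1 moved by -0.25, -0.09 and -0.17 on the log2 scale from 24 to 48, 48 to 72 and 72 to 96 h, and each step lay between the 10th and the 90th percentile of the same step over all models. AMT4 moved by -0.18, -0.48 and 0.29. Its step from 48 to 72 h was below the 10th percentile of all models, which was -0.44. All 3 AMT4 probes had a negative step there, of -0.94, -0.60 and -0.26, but with the deposited log ratios the step of the model was -0.15. For comparison, the scanner software gave the log2 ratio of each AMT4 spot an error of 0.49 to 0.65.

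The 0 h level was examined in more detail, because each ratio rests on it. All 4 arrays carried 0 h RNA in Cy3, but the sources used here do not state whether it was 1 extract labelled once, so differences between extracts or labellings are not separated from those between arrays. After normalization the 0 h level of AMT1 slot 1 differed 1.99-fold between its highest and its lowest array. For slot 2 the range was 1.73-fold and for slot 3 it was 2.54-fold. In all 3 AMT1 probes the level was highest on the 96 h array and lowest on the 24 h array. Over 16264 probes well above background at 0 h, the median range was 1.11-fold. Only 0.332%, 0.695% and 0.105% of these probes had a range at least as wide as that of AMT1 slots 1, 2 and 3. On the processed signal of the scanner software these shares were 1.06%, 1.3% and 0.135%. Among 2620 models with 3 such probes, 4 models (0.153%), AMT1 included, had a range of at least 1.73-fold in every probe, a limit set at the narrowest AMT1 probe. The slot 3 range rested on the outer arrays, being 1.35 on the log2 scale with all arrays, 0.60 without the 24 h array and 0.78 without the 96 h array.

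The AMT4 probes varied less at 0 h. Their ranges were 1.33-, 1.45- and 1.41-fold in slots 1, 2 and 3, and the highest level was found on the 48 h array in each of them. Ranges at least as wide were found in 4.33%, 1.95% and 2.56% of the same 16264 probes. AMT4, too, thus lay among the more variable of these probes in the 0 h channel. Among the same probes, the 30 unsaturated ones with a mean log2 ratio of at least 4, the AMT4 probes included, had a median range of 1.33-fold. Without the 48 h array the log2 range fell to 0.19 from 0.41 in slot 1 and to 0.22 from 0.54 in slot 2. Expressed against the 24 h array, the 0 h level of AMT1 on the 96 h array was 1.99-, 1.73- and 2.54-fold, while that of AMT4 was 0.88-, 1.03- and 0.83-fold. The 10th and 90th percentiles of the 16264 probes were 0.89- and 1.11-fold. The tests above do not separate this spread of the reference from a change of the starved cells.

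In the starved channel no slope was called for either gene. From 24 to 48 h the level went up in 5 of the 6 probes, with AMT4 slot 3 at -0.0071, and from 48 to 72 h it went down in all 6. From 24 to 96 h the starved level of AMT1 changed by 0.49, 0.92 and 1.39 on the log2 scale in slots 1, 2 and 3, the first of these with a saturated spot at 96 h. The starved level of AMT4 changed by -0.65, -0.47 and -0.63. For the 16264 probes well above background in both channels the 10th and 90th percentiles of this change were -0.73 and 0.65. AMT1 slots 2 and 3 lay outside them and the AMT4 probes within. Slopes of the starved level per 24 h were 0.09, 0.19 and 0.40 for AMT1 and -0.32, -0.25 and -0.27 for AMT4. None of these was called by limma, with adjusted p-values of 0.29 to 0.87, and in this test 0 of 22132 probes (0%) were called while 2914 had an unadjusted p under 0.05. The difference in slope between the genes was not tested.

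The 0 h and the starved level of a probe tended to move together from array to array. In 16 of the 18 steps between neighbouring arrays, counted over the 6 probes, both channels went the same way. Over 15634 unsaturated probes well above background in both channels this was the case in 62.3% of steps. Over the 30 of them with a mean log2 ratio of at least 4 it was the case in 87.8%. Those 30 probes also had a wider range at 0 h, with a median of 1.33-fold against 1.12-fold in the 12995 probes with a mean log2 ratio within 1. All steps of an array share its hybridization and its scan, and the part of the starved signal in the 0 h reading was not tested. A ratio can therefore stay level while both of its channels shift, as it did for AMT1 slot 3, whose ratio stayed between 2.45 and 2.68 while its 0 h level ranged over 2.54-fold and its starved level over 2.62-fold.

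**Figure D3:**
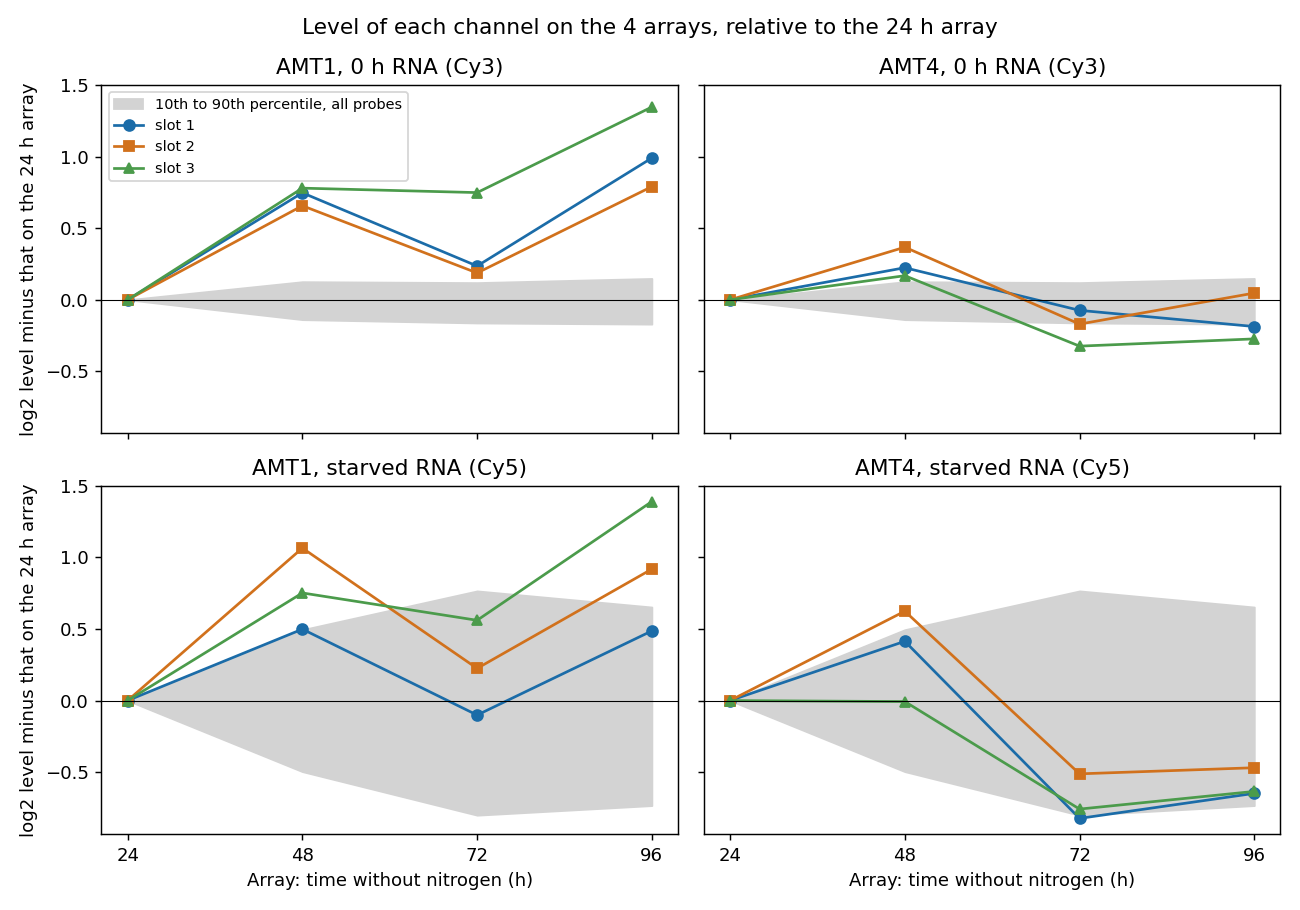
Normalized log2 level of the 0 h channel (top) and the starved channel (bottom) on each array, relative to the 24 h array, for the probes of AMT1 (left) and AMT4 (right). The grey band spans the 10th to the 90th percentile of 16264 probes. The AMT1 probes lie above the band at 0 h on the 48, 72 and 96 h arrays, and the AMT4 probes lie above it on the 48 h array and within or below it on the 72 and 96 h arrays.

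AMT4 had the higher ratio of the 2 models on all 4 arrays. The log2 difference of AMT4 minus AMT1 was 0.55, 0.63, 0.23 and 0.69 at 24, 48, 72 and 96 h, with a mean of 0.52 ± 0.20 (SD, n = 4). By an exact two-sided sign-flip permutation test p was 0.125, which is the smallest value that 4 arrays can give. The order of the genes was not stable over probes. Of the 9 pairs of an AMT1 and an AMT4 probe, the mean difference ran from -0.67, for slot 2 of both genes, to 2.90, for AMT1 slot 3 and AMT4 slot 1. With slots 1 and 2 alone it was -0.0025. The saturation of AMT1 slot 1 at 48 and 96 h makes the difference an upper bound at these time points for that probe.

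A further membrane protein of the wider ammonium transporter family, the Rh protein RHP2 (model 149381, CHLRE_06g284100v5), went the other way. Its log2 ratio was -2.84, -1.89, -1.65 and -1.43 at 24, 48, 72 and 96 h, with a mean of -1.96 ± 0.62 (SD, n = 4 time points). It was called lower by limma (adjusted p = 0.0037), as were 6.17% of all models. It is the only other family member the study's tables name, and with the Holm adjustment it was not called.

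The position of AMT1 and AMT4 among other nitrogen genes was compared using a list taken from the study, which drew it from these same samples, so that its direction is not independent evidence. Of 13 further models 12 were tested, and 9 were called higher, 0 lower and 3 not called, beside 3.47% of all models called higher and 6.17% lower. With median centring 11 were called higher and with the deposited log ratios 10. The median log2 ratio of the list was 2.70, against 0.05 over all tested models. The glutamine synthetase GLN3 (model 136895), which joins ammonium to glutamate, was the highest at 5.66 ± 0.24 (SD, n = 4 time points). Model 147468, at the locus that the study's text gives for the glutamine synthetase GLN4, was also called higher, at 1.73 ± 0.09. GLN1 (model 133971) and GLN2 (model 129468), which belong to the same enzyme family, were not called. The mean log2 ratio of GLN1 was 0.62, with 1 probe saturated in starved cells on all 4 arrays, and with median centring it was 1.01 and called. No fold is given for GLN2, since each of its 3 probes reached saturation in Cy3 and Cy5 on every array. Genes of nitrate use were high as well, with NAR2 (model 184660), a partner of nitrate transport, at 4.98 ± 0.37 and nitrite reductase NII1 (model 192085) at 4.21 ± 0.28. Nitrate reductase NIT1 (model 184661) had 3.05 ± 0.18, and 4.84 with the deposited log ratios. Of its 2 kept probes, 1 was well above background at 0 h on all 4 arrays. NIT2 (model 205647), the regulator of nitrate assimilation genes, had 1.34 ± 0.25.

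Transporters of other nitrogen compounds were taken from the names in the study's tables. Of 8 models 3 were called higher, 0 lower and 5 not called, with a list median of 0.34, where the background is again 3.47% called higher and 6.17% lower. In 2 of the 8 models no probe was well above background at 0 h on all 4 arrays, so these passed the filter only through the starved channel. Among the other 6 models 2 were called higher, both listed as the cationic amino acid transporter AOC5, with log2 ratios of 2.75 ± 0.40 (SD, n = 4 time points, model 182166) and 2.41 ± 0.18 (model 205770). Model 182166 had 3 kept probes, of which 1 was well above background at 0 h on all 4 arrays. The remaining call was a model listed as the purine permease UAPA3 (model 165762), for which no fold is given, since only 3 of its 12 spots were well above background at 0 h. Among 9 transporters or channels for sulfate, phosphate or potassium, 1 was called higher and 1 lower, and the list median was 0.54. The higher one was a potassium channel (model 146216), with 0 of 12 spots well above background at 0 h and all 12 in starved cells, and no fold is given for it. Of the 7 models of this list that passed at 0 h, 0 were called higher and 1 lower. The latter, a phosphate symporter listed as PTA3 or PTB3 (model 183357), had -3.93 ± 0.58. The study lists PTB3 under this model number with a positive microarray log2 ratio in nitrogen starvation, and the reason for the opposite sign was not tested. Other normalizations moved the count of the 9-model list, to 2 called higher with median centring and 3 with the deposited log ratios. In the main setting AMT1 and AMT4 had higher mean ratios than all models of both transporter lists that passed at 0 h. These lists do not hold nitrate transporter model 192090 and its partner NAR2, which stood in the study's nitrogen list. Their mean log2 ratios of 4.85 and 4.98 were above that of AMT1, at 4.83 with its saturated spots, and below that of AMT4, at 5.36. AMT1 slot 3 alone, at 2.60, was below AOC5 model 182166. With the deposited log ratios this probe, at 3.22, was again below model 182166, at 3.93. There it was also below models 165762 and 146216, which were dim at 0 h.

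**Figure D4:**
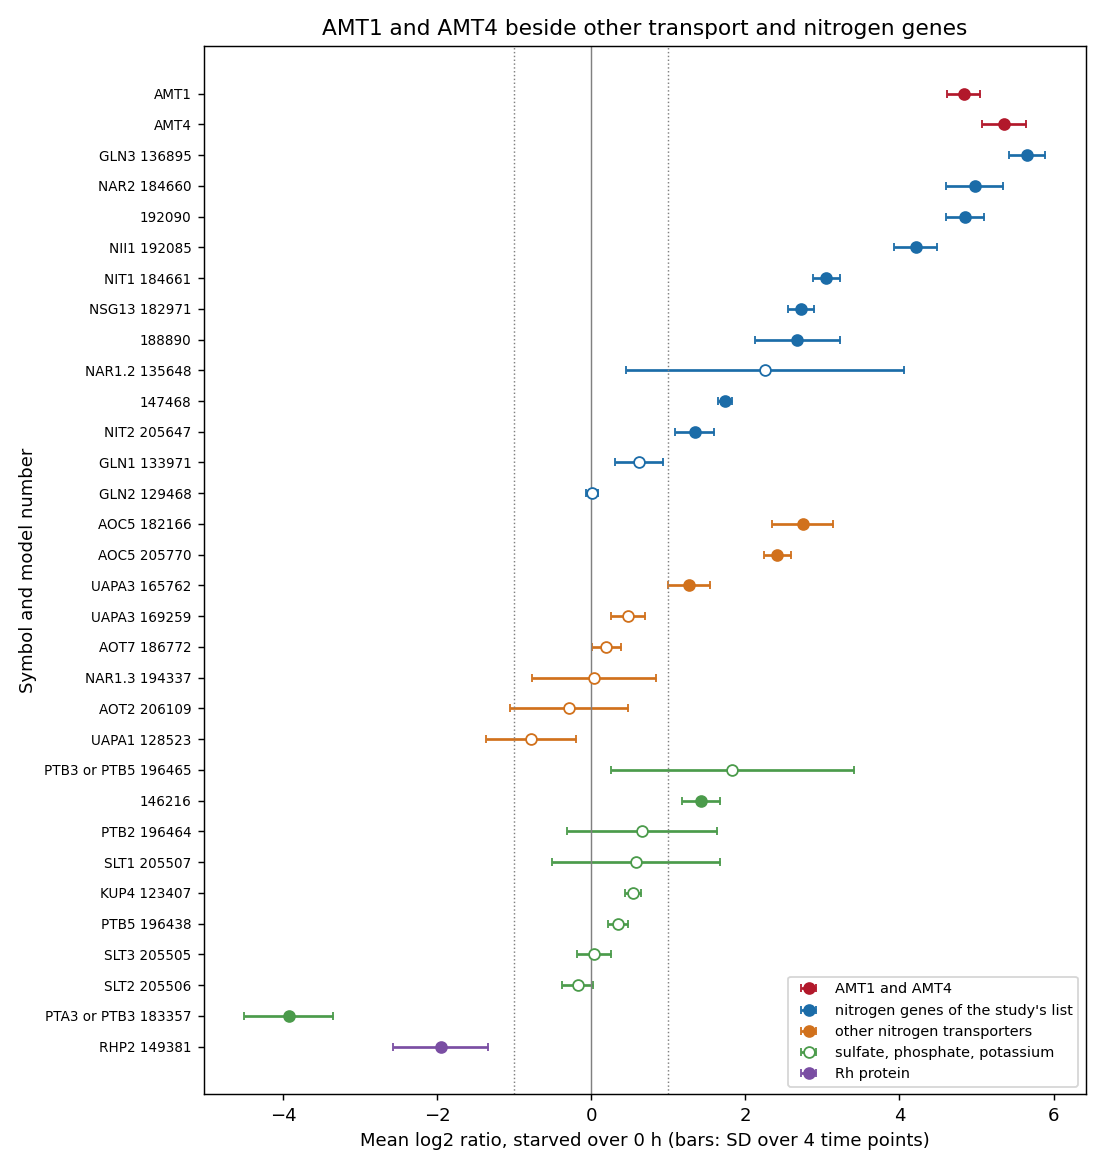
Mean log2 ratio of starved over 0 h RNA over the 4 time points, with bars for the SD between time points, for AMT1 and AMT4 and for the models of the comparison lists. Filled points were called, open points were not, and dotted lines mark 2-fold. AMT1 at 4.83 and AMT4 at 5.36 lie with GLN3, NAR2 and model 192090, and RHP2 lies at -1.96. The points of GLN2, from saturated probes, and of models 165762 and 146216, dim at 0 h, give no fold.

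The models whose 4 log2 ratios were most like those of AMT1 were sought among 7364 models with at least 2 kept probes, using the root mean square difference over the 4 time points. The closest was model 192090 (CHLRE_09g410850v5), named by the study as a nitrate transporter, with 5.16, 4.85, 4.81 and 4.57 at 24, 48, 72 and 96 h and a difference of 0.039 from AMT1. NAR2 came next at 0.29, then models 192854 and 180430, which had no matched locus, at 0.39 and 0.46, and AMT4 at 0.55. The closest model to AMT4 was GLN3 at 0.31, with log2 ratios of 5.91, 5.81, 5.45 and 5.46, followed by NAR2 at 0.40, model 192090 and AMT1 both at 0.55, and model 192854 at 0.66. The measure covers level and course together over only 4 time points, and the AMT1 values include the saturated spots. The closeness of model 192090 to AMT1 depended on the processing. Their mean log2 ratios were 4.85 and 4.83 in the main setting, but 6.06 and 4.92 with the deposited log ratios. Of the 3 kept probes of model 192090, 2 were well above background at 0 h on all 4 arrays.

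Neighbouring genes did not share the increase where they could be tested. Around AMT1, the next locus (model 150322), with 1 kept probe, had a mean log2 ratio of 0.13 ± 0.13 (SD, n = 4 time points) and was not called. The other 3 of the 4 nearest loci were not tested. Around AMT4, models 182687 and 187917 had 0.04 ± 0.32 and 0.11 ± 0.14 and were not called. Model 184, the second locus after AMT4, was called lower at -2.26 ± 0.43 (limma adjusted p = 0.00081), as were 6.17% of all models. Neighbours were taken from the order of loci in RefSeq, and this comparison was chosen after the values of AMT1 and AMT4 had been seen.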

How the data were processed

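The 4 arrays, their grouping by the hours given for the Cy5 channel, and the 6 probes are those described above. Per the file headers, the deposited array files, written by Agilent Feature Extraction (version 10.7.3.1), held median spot and background intensity per channel, processed intensity values after background subtraction with spatial detrending and dye normalization, log10 ratios of processed Cy5 over Cy3 with an error, and flags for saturation, outliers and signal above background. The flags of the deposited files were used as given and have no unit (other). The authors' deposited series table held the same log10 ratios, which were equal within 1e-06 for all 45218 spots of each array. No values of the study's later lowess step were used.

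Median intensities, which took the place of the planned means because the files hold medians, were corrected with normexp (offset 50) and normalized by loess (span 0.3, 4 iterations) over 43801 non-control spots per array, in R 4.3.3 with limma 3.58.1. A probe was kept when well above background on all 4 arrays in Cy5 or in Cy3, which left 22132 probes of 10772 models, and a model took the median of its kept probes. The log2 ratio of starved over 0 h was tested with limma (lmFit and eBayes, two-sided, Benjamini-Hochberg) as a mean (3 residual degrees of freedom), a slope per 24 h and a difference after 24 h (2 each). The smoothing of variances pooled all models. Channel levels were read after loess and Aquantile scaling. Each fit was tested on simulated data. All arrays lay on 1 slide, so slide could not be a term. The number of arrays limits the precision.

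The members, the lists and the tests were chosen with earlier results of these data known. Named were AMT1, AMT4 and their probes, any other named family member, the 5 models most like each gene, the 3 highest and 3 lowest called models of each transporter list, and the models of the study's nitrogen list and the RefSeq neighbours, which were added after values had been seen. RefSeq symbols gave 0 family members, so list members came from names in the study's tables, and RefSeq matched 9105 of the tested models to a locus. The alternatives changed the background correction, normalization, filter, probe summary, variance model, adjustment and arrays used. Probe and protein sequences were not used here.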

Additional observations from a re-analysis of the deposited data

How the results depend on the processing

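The mean increase of AMT1 and AMT4 kept its direction and its call under all 18 alternatives tried for each model, with log2 ratios of 2.60 to 5.37 for AMT1 and 4.70 to 5.81 for AMT4, and so did each of the 6 probes under 12 alternatives. Over all models, 374 were called higher and 665 lower, against 823 and 444 with median centring, 1032 and 959 with the deposited log ratios and 65 and 134 with the Holm adjustment, so that 36.0%, 65.0% and 51.8% of the calls were higher in the first 3 of these settings. Median centring moved the median log2 ratio of all models from 0.05 to 0.22, and the deposited log ratios moved it to 0.15. RHP2, at -1.96, was not called with the Holm adjustment. Of the sulfate, phosphate and potassium list, 2 models were called higher with median centring and 3 with the deposited log ratios, against 1 in the main setting.

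No result on the time course was called under any setting, and its direction depended on the probe in AMT1. The difference after the first day became 0.067 with saturated probes left out and 0.19 with slot 2 alone, and the slope became 0.0013 with slot 2 alone. The difference of AMT4 minus AMT1 became -0.67 with slot 2 alone and -0.0025 with slots 1 and 2. The AMT4 step from 48 to 72 h was -0.15 with the deposited log ratios, against -0.48. Single AMT1 probes changed sign close to 0. The slot 2 slope became -0.029 with a normexp offset of 1, -0.060 with median centring and -0.046 with the deposited log ratios, and its difference after the first day became -0.0099 and -0.010 with the last 2 settings. The slot 3 slope became 0.016 without background correction. Leaving out 1 array gave slopes from -0.14 to 0.039 in slot 2 and from -0.094 to 0.036 in slot 3, and differences after the first day from -0.11 to 0.0078 in slot 3. With the starved level in place of the ratio, an alternative added after seeing the data, the slope became 0.086 in slot 1 and 0.40 in slot 3, and the difference 0.29 and 0.90. The 0 h range was 2.10 in AMT1 slot 3 and 0.71 in AMT4 slot 1 on the log2 scale with the processed signal, and leaving out 1 array gave 0.60 to 1.35 in AMT1 slot 3, 0.19 to 0.41 in AMT4 slot 1 and 0.22 to 0.54 in AMT4 slot 2. Models 206109 and 205506 changed sign with median centring, to 0.15 and 0.18, and models 129468 and 194337 with the deposited log ratios, to -0.029 and -0.029. The cause of these shifts was not tested. Among slope calls over all models, 16 in the main setting, 59 higher and 133 lower were made without the 72 h array and 0 without the 24, 48 or 96 h array at 1 residual degree of freedom, where 411 to 1495 had an unadjusted p under 0.05. Biological replicates could not be paired because the labels give no replicate numbers and each time point was 1 array.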
